A study of Mus musculus with 6 samples.

Results

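The regions described here are 350 moderately filled Cbp peaks in BM-HPC cells, 8.72% of the 4012 rows of the deposited peak list. They were selected by read counts: each is a 400 bp row of the first of 3 blocks of the list (2422 rows) that held 11 to 13 distinct reads in the Cbp library and 3 or fewer in the IgG library. Rows on the sex chromosomes, rows that start below 4 Mb and rows at 85 to 91 Mb of chromosome 1 were left out, which left 2215 eligible rows, and the members make up 15.8% of those. Both libraries came from BM-HPC, a line of hematopoietic progenitor and stem cells from mouse bone marrow of strain C57BL/6-cast, grown without treatment in medium that contained stem cell factor (100 ng/ml) and human IL-6 (10 ng/ml). Chromatin was crosslinked with 1% formaldehyde and immunoprecipitated, in one library with a polyclonal Cbp antibody from rabbit and in the other with rabbit IgG, which has no specific target. With 1 library per antibody there is no replicate, so every interval below covers counting error between the libraries and none of the variation between cultures or precipitations.

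Cbp, the product of Crebbp, is a transcriptional co-activator and lysine acetyltransferase. It does not read DNA sequence itself: transcription factors bring it to promoters and enhancers, where it acetylates histone tails and other proteins. In ChIP-seq a place where the protein sits appears as a local pile of fragments over a short stretch of DNA, while reads from the IgG control follow how easily each stretch of chromatin is fragmented, recovered and mapped. In blood stem and progenitor cells Cbp is known to be needed for self-renewal and for a balanced output of lineages.

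The Cbp library held 9770169 reads (3.88% duplicates) and the IgG library 8068592 (14.6% duplicates), and 9388703 and 6886428 distinct nuclear reads were used. A place without a read in one library is compatible with up to 3 reads there.

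The counts that chose the members were low and close together, and they are given as a description only. There were 148 members with 11 Cbp reads, 121 with 12 and 81 with 13, with a median of 12. The IgG library had no read in 66 members, 1 read in 97, 2 reads in 107 and 3 reads in 80. A member with 11 Cbp and 3 IgG reads had a scaled Cbp-to-IgG ratio of 2.69, while a member with 13 Cbp reads and 1 IgG read had 9.55. For the members without an IgG read, 3 IgG reads per row were taken as the floor. Against that floor the scaled ratio was 2.69 with 11 Cbp reads and 3.18 with 13, which leaves out the counting error of the Cbp reads. Just outside the limits lay 229 eligible rows with 10 Cbp and 62 with 14 Cbp reads, each with 3 or fewer IgG reads, and 51 rows with 11 to 13 Cbp and 4 IgG reads. A further 20 first-block rows had the right counts but the wrong place: 6 on chromosome X, 8 below 4 Mb on other chromosomes and 6 in the stretch of chromosome 1.

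Summed over the members there were 4133 Cbp and 551 IgG reads. The mean member held 11.8 Cbp and 1.57 IgG reads. The densities 5000 to 50000 bp away would give 1.99 and 1.51 per 400 bp. The limits of the rule bound both means, so nothing is read from how they stand to those densities. By an exact binomial test per row, adjusted over the first block, 91 members (26%) were Cbp-higher, against 406 of 2422 rows (16.8%) in the block. Since the rule used these same counts, nothing is read from that difference. The 91 were all 66 members without an IgG read and the 25 members with 13 Cbp reads and 1 IgG read. Duplicates made up 3.34% of the members' Cbp reads and 14.2% of their IgG reads. Keeping them gave 4276 Cbp and 642 IgG reads, 110 members held a duplicated Cbp read, and no member went above 17 Cbp or 6 IgG reads.

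The rule fixed how many Cbp reads a member holds but not where they lie, and they lay in a distinctive pattern. The Cbp reads of the members were concentrated in 2 bands, each 64 bp wide, at the same offsets from the row centre. The left band ran from -140 to -77 bp and the right band from 36 to 99 bp, so that their midline lies left of the row centre. The bands take up 32% of the row and contained 57.1% (55.5 to 58.6) of the members' Cbp reads, whereas the IgG share was 32.5% (28.6 to 36.6). The IgG share lay near the share of the width. The bands were placed on the Cbp reads of the first block, members included. The Cbp share, its interval and its distance from the IgG share are therefore a description only. The rule caps the control at 3 reads per row, and in all 1865 other eligible rows, which include rows above that cap, the bands held 37.5% (36.2 to 38.8) of the IgG reads. Because the bands flank the centre, the central 100 bp held 26.1% (24.8 to 27.5) of Cbp reads, close to its 25% of the width, while the central 200 bp held 64.1% (62.6 to 65.6). Both bands held nearly the same amount, with 1183 Cbp reads in the left and 1175 in the right.

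**Figure D1:**
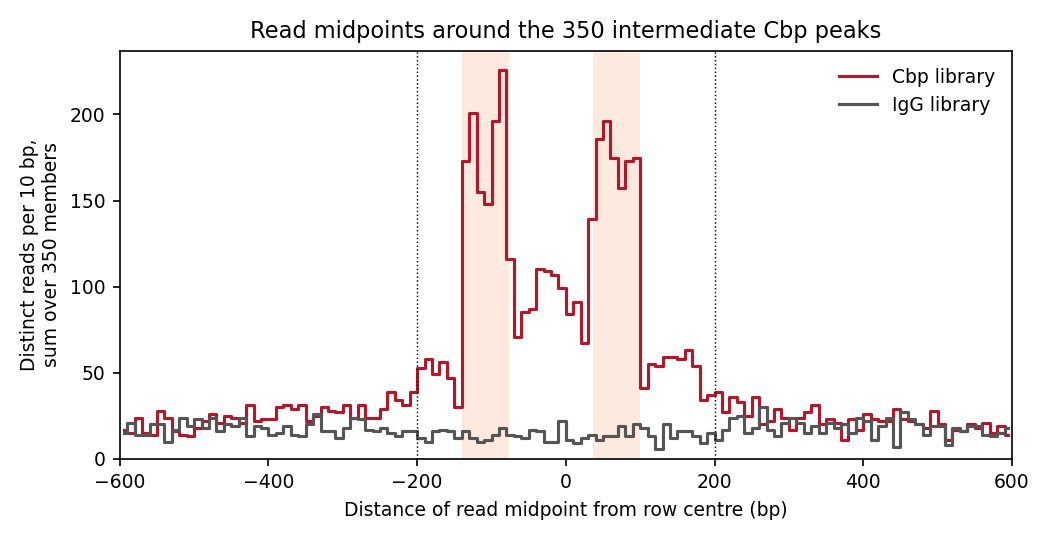
Distinct read midpoints per 10 bp (vertical axis, sum over 350 members) against their distance from the row centre in bp, for the Cbp library (red) and the IgG library (grey); dotted lines mark the row edges and shading the bands. Cbp reads fill the shaded bands, step down at each band edge and fall toward the IgG level outside the row, while the IgG line shows no such steps.

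The band edges were sharp to the base. They were read off the single-base Cbp counts of the first block, members included, so the numbers at the edges are a description only. At the outer left edge, members held 88 Cbp reads over the 5 positions inside the band and 15 over the 5 positions outside it. At the inner left edge these numbers were 105 and 27, at the inner right edge 141 and 18, and at the outer right edge 84 and 16. Over all 2422 rows of the block the count per single base went from 22 at -141 bp to 129 at -140 bp, and from 118 at 99 bp to 18 at 100 bp. How the authors placed rows is not given in the sources used here, and its part in the bands was not tested.

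Every member held at least 4 Cbp reads in the bands. The sum over both bands had a median of 7 and ranged from 4 to 11, with 9 members at 4, 51 at 5, 103 at 6, 94 at 7, 58 at 8, 27 at 9, 4 at 10 and 4 at 11. In the whole first block only 1 row held fewer than 4. The IgG library had fewer than 4 reads in the bands of all 350 members, which its limit of 3 reads per row forces. Reads were present on both sides in 326 members (93.1%), while 16 members had an empty left band and 8 an empty right band. The left band held more reads in 156 members, the right band in 152, and 42 were even, so neither side led.

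**Figure D2:**
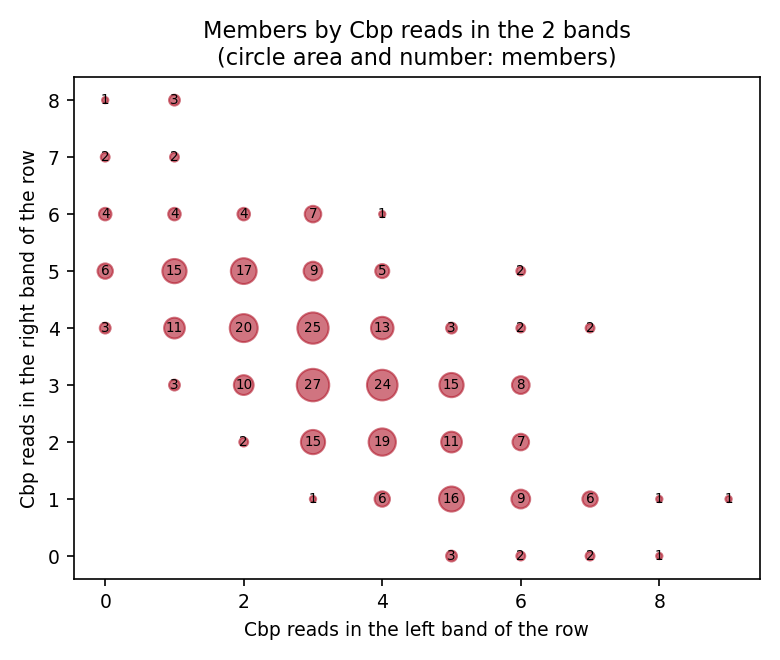
Number of members (circle area and printed number) by Cbp reads in the left band (horizontal axis) and in the right band (vertical axis) of the row. Most members have 2 to 5 reads on each side, and the lower left corner is empty because no member has fewer than 4 in all.

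Cbp reads also exceeded IgG reads outside the bands but inside the row. Between the bands, over 112 bp, there were 968 Cbp and 151 IgG reads, which gives a scaled ratio of 4.71 (3.96 to 5.63). In the outer parts of the row, 160 bp in all, they held 807 and 221, a ratio of 2.68 (2.31 to 3.13), and in the bands 2358 and 179, a ratio of 9.68 (8.31 to 11.3). These are descriptions, because the rule used the sum of the same reads. Per member and 100 bp, Cbp stood at 5.26 reads in the bands, 2.47 between them and 1.44 in the outer parts, while IgG stood at 0.400, 0.385 and 0.395. The stretch between the bands was empty of Cbp reads in 10 members and held a median of 3.

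The neighbouring classes of rows showed the same bands with a different filling. In the 851 eligible rows with 8 to 10 Cbp and 3 or fewer IgG reads, the bands held 62.2% (61.1 to 63.3) and the stretch between them 19.8% (18.9 to 20.7) of Cbp reads. In the members these shares were 57.1% and 23.4% (22.1 to 24.7). In the 321 rows with 14 or more Cbp and 3 or fewer IgG reads they were 56.0% (54.8 to 57.3) and 28.6% (27.4 to 29.7). The share between the bands was thus higher in the classes with more Cbp reads in the row. The classes are defined by the total of these same reads, and every row of these classes holds 4 or more reads in the bands. The part of both in the shares was not tested, so nothing is read from the order of the classes.

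Single members differed widely in how their reads were arranged. The SD of Cbp read positions inside a member ran from 47.0 to 140 bp with a median of 95 bp, and the mean position from -101 to 95.2 bp of the centre with a median of -10.2 bp. The tightest was chr11:59653212-59653611, with 8 reads in the left band, 1 in the right band and a mean position of -85.4 bp. Next came chr1:178744560-178744959 (SD 51.1 bp) and chr13:37213322-37213721 (SD 54.5 bp), whose left bands were empty and whose right bands held 8 and 6 reads. In these 3 members the reads lay mainly on 1 side. In chr7:117987828-117988227 (SD 56.6 bp) the left band held 5 reads and the right band 2, and in chr6:33010155-33010554 (SD 58.9 bp) the left held 2 and the right 5. The widest was chr1:80712515-80712914, with an SD of 140 bp, 3 reads in the left and 2 in the right band, so that most of its 11 reads lay elsewhere in the row. Likewise chr1:135717008-135717407 (SD 138 bp) held 2 reads in each band out of 11. The next were chr11:23398006-23398405 (SD 136 bp) with 1 and 3 reads in the left and right bands, chr2:166630586-166630985 (SD 136 bp) with 4 and 1, and chr7:91040315-91040714 (SD 131 bp) with 0 and 5. Positions are mm9 coordinates, and gene annotation of that build was not used here.

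Reads outside the row were not used to choose members and give a separate view. Taken from 200 to 1000 bp on either side, there were 3544 Cbp and 2774 IgG reads, which gives a scaled ratio of 0.939 (0.893 to 0.987, p = 0.0130, two-sided exact conditional binomial test between the libraries). Relative to IgG, Cbp was slightly lower beside the members than genome-wide. Scaled instead by the reads 5000 to 50000 bp from the members, the ratio was 0.970 (0.922 to 1.02, p = 0.228, exact binomial test), which no longer passes. Per member there were 1 to 32 Cbp reads (median 9) and 1 to 19 IgG reads (median 8) in this flank. In 167 members (47.7%) scaled Cbp exceeded IgG, so members split almost evenly.

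The summed flank hid a gradient with distance. From 200 to 300 bp there were 597 Cbp and 367 IgG reads, giving a ratio of 1.20 (1.05 to 1.37). From 300 to 400 bp the ratio was 1.01 (0.878 to 1.16), and from 400 to 500 bp 0.901 (0.785 to 1.03). From 500 to 1000 bp, with 1991 Cbp and 1670 IgG reads, it was 0.876 (0.821 to 0.936), the lowest of the distances measured. It was 0.905 (0.864 to 0.949) from 1000 to 2000 bp, 0.953 (0.926 to 0.980) from 2000 to 5000 bp and 0.968 (0.961 to 0.976) from 5000 to 50000 bp. Of the distances measured, the interval thus lay above 1 in the first 100 bp past the row edge alone, and below 1 at every distance beyond 500 bp. Another listed row lay within 2 kb of 21 members, and 11 members share bases with such a row. The ring from 200 to 300 bp was not measured without them, so the part of neighbouring rows in its ratio was not tested. The gradient was not particular to the members. From 200 to 300 bp to 500 to 1000 bp the ratio fell from 1.12 to 0.935 in rows with 8 to 10 Cbp reads. In rows with 14 or more it fell from 1.54 to 0.832, and in all other eligible rows from 1.16 to 0.901.

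**Figure D3:**
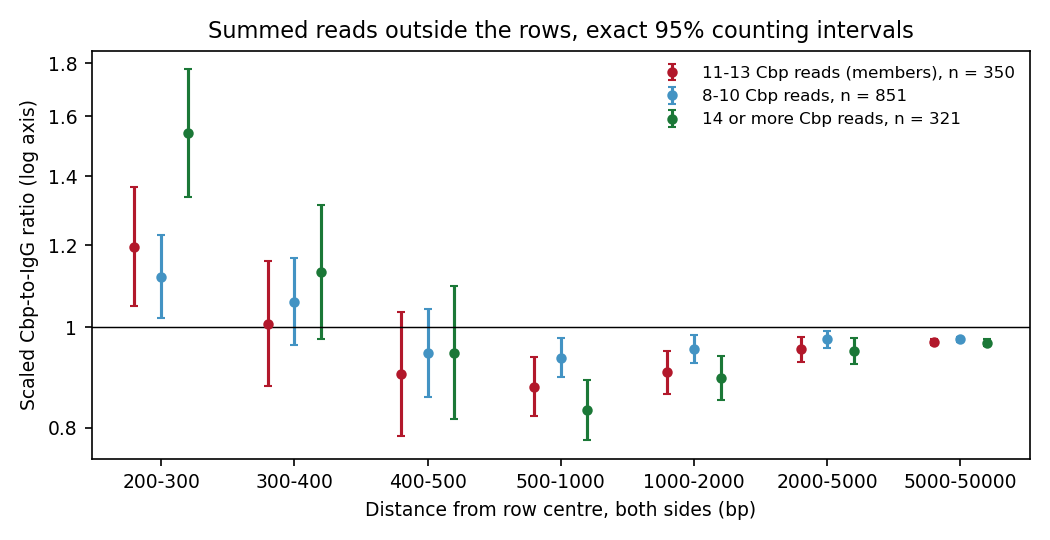
Scaled Cbp-to-IgG ratio of summed reads (log axis) in rings at increasing distance from the row centre, for the 350 members and for rows with 8 to 10 and with 14 or more Cbp reads; bars are exact 95% counting intervals. The members start at 1.20, pass 1 and reach 0.876 at 500 to 1000 bp before they return toward 0.968 far from the row.

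Both libraries were denser near the members than farther away. At 500 to 1000 bp the Cbp library held 5.69 reads per kb and member, 1.15 times (1.10 to 1.20) its density of 4.97 at 5000 to 50000 bp. The IgG library held 4.77 per kb there, 1.27 times (1.21 to 1.33) its distant density of 3.77. At 200 to 300 bp the order was the opposite, with Cbp 1.72 times (1.58 to 1.86) and IgG 1.39 times (1.25 to 1.54) their distant densities. At 500 to 1000 bp both libraries were thus above their distant level, IgG by more. The rise of IgG toward the members was larger than toward rows with 8 to 10 Cbp reads (odds ratio 1.08, 1.02 to 1.15, adjusted p = 0.0329 over 4 comparisons, Fisher's exact test). Against rows with 14 or more Cbp reads the odds ratio was 0.949 (0.886 to 1.02, adjusted p = 0.281, Fisher's exact test). For the Cbp library the odds ratios were 1.02 (0.967 to 1.08) and 0.998 (0.936 to 1.06), with adjusted p of 0.620 and 0.961 (Fisher's exact test). These 4 comparisons were chosen after the data were seen.

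Per row the flanks carried few calls. By the exact binomial test on reads 200 to 1000 bp from the centre, adjusted over the first block, 0 of 350 members were Cbp-higher and 0 were IgG-higher, against 2 (0.0826%) and 3 (0.124%) of the 2422 rows in the block. At an unadjusted p below 0.05, 5 members (1.43%) were Cbp-higher, against 2.19% of the block, and 10 members (2.86%) were IgG-higher, against 3.18% of the block. The members' shares were near those of the block. A median of 9 Cbp and 8 IgG reads per flank leaves little room to detect a difference in a single member.

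The flanks of the members did not differ detectably from those of other eligible rows in the summed ratio. Against rows with 8 to 10 Cbp reads the odds ratio of Cbp to IgG reads at 200 to 1000 bp was 0.962 (0.906 to 1.02), and against rows with 14 or more it was 0.975 (0.907 to 1.05). Against all 1865 other eligible rows it was 0.984 (0.932 to 1.04). The adjusted p was 0.571 in all 3 comparisons (two-sided Fisher's exact test). In the first 100 bp past the row edge, however, members were below the rows with 14 or more Cbp reads, whose ratio was 1.54 (1.34 to 1.78). The odds ratio was 0.776 (0.639 to 0.943, adjusted p = 0.0310, Fisher's exact test). Against rows with 8 to 10 Cbp reads, whose ratio was 1.12 (1.02 to 1.23), it was 1.07 (0.909 to 1.26, adjusted p = 0.630, Fisher's exact test). This ring was chosen after the data were seen.

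Within the members, flank ratios followed neither inside count in steps. Members with 11 Cbp reads had a flank ratio of 0.926 (0.857 to 1.00), those with 12 had 0.876 (0.804 to 0.954) and those with 13 had 1.06 (0.956 to 1.17). By IgG reads inside the row the ratios were 0.887 (0.789 to 0.998) for 0 reads, 1.00 (0.908 to 1.10) for 1, 0.908 (0.829 to 0.995) for 2 and 0.952 (0.860 to 1.05) for 3. The 66 members without an IgG read inside still had a median of 7.5 IgG reads in their flanks, beside 7 to 8 in the other members.

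The member with the largest Cbp excess beside its row was chr4:16090996-16091395, with 13 Cbp reads and 1 IgG read inside and 26 Cbp and 3 IgG reads in the flank. Its flank ratio was 6.37 (1.95 to 32.9, adjusted p = 0.101, exact binomial test). Another listed row has its centre 321 bp away, so part of those flank reads belong to that row. At chr3:137615796-137616195 the flank held 18 Cbp and 4 IgG reads (ratio 3.31, 1.09 to 13.4), and the nearest listed row was 4238642 bp away. At chr7:134489547-134489946, with 12 Cbp and no IgG reads inside, the flank held 13 Cbp reads and 1 IgG read (9.55, 1.43 to 406). The adjusted p was 0.864 at chr3:137615796-137616195 and 0.598 at chr7:134489547-134489946 (exact binomial test). The flank of chr2:26301262-26301661 held 24 Cbp and 9 IgG reads, with another row 281 bp away, and that of chr10:80871281-80871680 held 22 and 9, with another row 1003 bp away. On chromosome 11, chr11:54911335-54911734 had 18 and 5 flank reads and chr11:101005027-101005426 had 13 and 2. On chromosome 8, chr8:73133927-73134326 had 18 and 6, and chr8:108147109-108147508 had 15 and 4. The last of these 10 members, chr3:85032588-85032987, had 13 and 3. Of the 10, 4 had an unadjusted p below 0.05 and none passed after adjustment over the block (exact binomial test).

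At the other end, some members stood in flanks that were rich in control reads. The largest IgG excess was at chr7:19663155-19663554, with 11 Cbp and 3 IgG reads inside and 8 Cbp and 18 IgG reads in the flank (ratio 0.327, 0.123 to 0.789). At chr1:193894147-193894546 the flank held 10 Cbp and 19 IgG reads (0.387, 0.161 to 0.874). At chr10:39848207-39848606 there were 12 Cbp and no IgG reads inside but 7 Cbp and 16 IgG reads beside the row (0.322, 0.112 to 0.826). This member is among the 91 called Cbp-higher inside, although the control was well covered just outside it. The flank of chr1:6589455-6589854 held 4 and 12 reads, and that of chr6:66879519-66879918 held 7 and 14. The adjusted p of these 5 members was between 0.635 and 0.861 (exact binomial test).

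The members were spread over all 19 autosomes. Chromosome 1 held 55 of them (15.7%), chromosome 2 held 25, chromosome 7 held 24, and chromosome 19 had the fewest with 7. On chromosome 1 this is 0.279 per Mb, against 0.130 per Mb on the other autosomes together, and chromosome 1 also held 18.6% of eligible rows and 10.4% of autosomal IgG reads. The part of read depth in the number on chromosome 1 was not tested. Relative to the eligible rows, 13.3% (10.2 to 17.0) of those on chromosome 1 were members. The highest share was 21.9% (14.1 to 31.5) on chromosome 3 and the lowest 12% (5.64 to 21.6) on chromosome 12. The interval of each of the 19 autosomes included the share over all of them, 15.8% (14.3 to 17.4). No chromosome thus stood apart in the share of eligible rows that were members. Per Mb, chromosome 1 was highest with 0.279 members, and chromosome 8 came next with 0.175. The number of members per autosomal IgG read was also highest on chromosome 1.

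**Figure D4:**
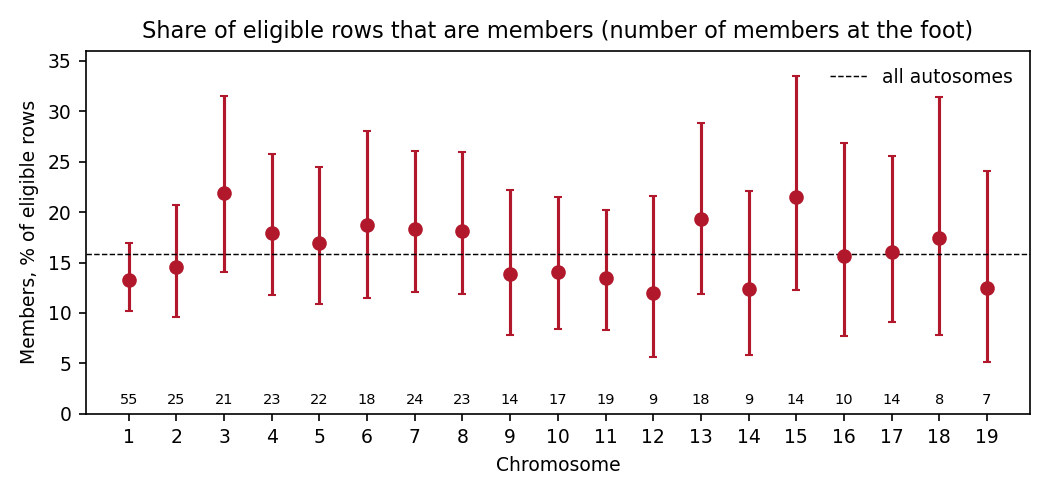
Percent of eligible first-block rows that are members (vertical axis) on each autosome, with exact 95% intervals and the number of members at the foot; the dashed line is the share over all autosomes, 15.8%. Every interval crosses the line, and chromosome 1 has the most members, 55.

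Most members stood alone. The 331 gaps between neighbouring members on a chromosome had a median of 3501678 bp. The nearest other listed row lay a median of 129717 bp away, and 21 members had another row within 2 kb. In 11 members bases are shared with another row of the list, so their reads are counted again there. None of the 350 overlapped a row of the later blocks. Only 4 pairs of members lay within 5 kb. On chromosome 13, chr13:55868661-55869060 (13 Cbp, 2 IgG reads) and chr13:55868789-55869188 (12 Cbp, no IgG read) share 272 bp. On chromosome 16, chr16:45025390-45025789 (13 Cbp, 1 IgG) and chr16:45025582-45025981 (12 Cbp, 1 IgG) share 208 bp. Each of these pairs counts part of the same reads, and merging them leaves 348 separate places. The other pairs were chr11:68677366-68677765 and chr11:68678213-68678612, 847 bp apart with 13 Cbp and 3 IgG reads each, and chr4:122691139-122691538 and chr4:122693619-122694018, 2480 bp apart with 12 and 11 Cbp reads.

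The members lay in well covered parts of the genome in both libraries. Around a member (100 kb, with the row and 2 kb on either side of it left out, scaled back to 100 kb) the Cbp library had 226 to 819 reads with a median of 493, against a median of 363 over 23684 autosomal windows of 100 kb. The IgG library had 162 to 663 reads with a median of 376, against 260. These medians are 1.36 and 1.45 times those of the windows. In the Cbp library 337 members (96.3%) and in the IgG library 339 (96.9%) were above the median window. Without chromosome 1 the medians were 1.38 and 1.47 times those of the windows, so the difference was as large without that chromosome.

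**Figure D5:**
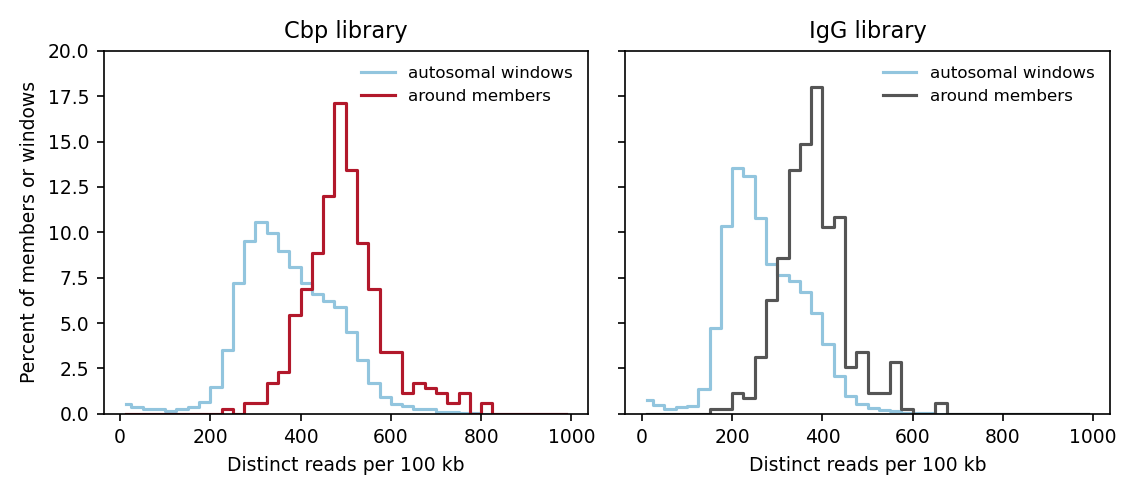
Distribution of distinct reads per 100 kb (horizontal axis) as percent of members (red for Cbp, grey for IgG) and percent of autosomal windows (blue), in the Cbp library (left) and the IgG library (right). The members are shifted to higher depth in both libraries, with medians of 493 against 363 and 376 against 260.

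Ranked by Cbp and IgG reads together, the 3 deepest surroundings were all on chromosome 1. At chr1:193092793-193093192 there were 771 Cbp and 663 IgG reads in the region, at chr1:172485014-172485413 there were 745 and 658, and at chr1:174412081-174412480 there were 819 and 569. By the same ranking the thinnest were at chr17:13740844-13741243 with 226 Cbp and 162 IgG reads, at chr3:41546227-41546626 with 290 and 215, and at chr12:8626815-8627214 with 298 and 211. In a single library the order can differ. These ends differ by more than 2 times in each library. The neighbouring classes had similar median depth. It was 1.33 times the window median in Cbp and 1.42 times in IgG for rows with 8 to 10 Cbp reads. For rows with 14 or more it was 1.38 and 1.45 times. Above the median window lay 89.0% (Cbp) and 88.4% (IgG) of the rows with 8 to 10 reads, fewer than of the members. For rows with 14 or more these shares were 96.3% and 96.9%. The thinnest surroundings of rows with 8 to 10 reads held 13.6 Cbp and 10.5 IgG reads. Above-average depth was thus shared by the other classes of the block, and its part in the choice of rows was not tested.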

How the data were processed

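The authors deposited each ChIP-seq library as genomic intervals (chromosome, start and end, without strand or score) and a list of 400 bp peaks for the Cbp sample. The submitters' processing notes name build mm9. Nothing in the sources used here gives the aligner, the read extension, the peak caller or the use of the control. From these files, distinct intervals were counted by midpoint (duplicates once), and the libraries were scaled by their distinct nuclear reads outside all listed rows (1.36 Cbp reads per IgG read). A midpoint lies in a row where start <= midpoint < end.

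Reads 200 to 1000 bp from each row centre were compared by a two-sided exact conditional binomial test, summed over rows and per row. The p-values per row were adjusted by the Benjamini-Hochberg method over all 2422 first-block rows (threshold 0.05). Summed reads of members and of other rows were compared by two-sided Fisher's exact tests. Ratios carry exact 95% intervals and shares Clopper-Pearson 95% intervals. All of these treat reads as independent and cover counting error only, with 1 library per antibody. The per-row test was tried on simulated counts that held counting error only and large changes. That trial covers neither small changes nor variation between libraries. Regions named were the 10 members with the largest Cbp excess outside the row and the 5 with the largest IgG excess, pairs of members within 5 kb, the 5 with the smallest and the 5 with the largest spread of reads, and 3 at each end of regional depth. The members and the comparisons were chosen with earlier results of these data known. The bands inside the row, the ring of 200 to 300 bp, the scaling by distant reads and the comparison of near with distant reads were chosen after seeing the data. Planned results on genes, promoters and motifs needed an mm9 genome and annotation, which were not used here. The 4 LSK samples were not analysed here. Software was scipy 1.17.1, numpy 2.4.6, pandas 2.3.3 and matplotlib 3.10.9 under Python 3.11.15.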

Additional observations from a re-analysis of the deposited data

How the results depend on the processing

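The flank ratio of the members (0.939) kept its direction and its side of the threshold with all deposited reads kept, with whole-library scaling, at 500 to 2000 and 2000 to 5000 bp, without neighbouring rows, without chromosome 1 and under the other count limits. It was 1.03 (p = 0.410) at 200 to 500 bp and 1.20 at 200 to 300 bp, which turns its direction, and 0.970 (p = 0.228) when scaled by the reads 5000 to 50000 bp from the members (exact binomial tests). The odds ratio against rows with 14 or more Cbp reads (0.975) passed at 200 to 500 bp (0.865) and at 200 to 300 bp (0.776), and that against rows with 8 to 10 reads (0.962) passed at 500 to 2000 bp (0.945). The cause of these changes was not tested. Of first-block rows, 2 Cbp-higher and 3 IgG-higher calls beside the row became 6 Cbp-higher with all reads kept, 1 and 0 at 200 to 500 bp, 1 and 5 at 500 to 2000 bp, 1 and 7 at 2000 to 5000 bp, 0 and 0 at 200 to 300 bp, and 0 IgG-higher without neighbouring rows. Among members 1 was then Cbp-higher with all reads kept and 1 IgG-higher at 2000 to 5000 bp. The number of members (350) was 202 for 12 or 13 Cbp reads only, by construction. No paired analysis was possible because there was 1 library per antibody, and LSK samples, whose labels carry numbers, were not used. Depth limits single members, which rest on 11 to 13 Cbp reads.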

Other observations

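The bands at fixed offsets were also present in the later blocks of the list, where the control reads were concentrated in them too. In the second block they held 61.1% (60.4 to 61.8) of Cbp and 56.4% (55.6 to 57.2) of IgG reads, and in the third block 52.9% (52.2 to 53.6) and 56.1% (55.3 to 56.9). In the first block the IgG share was 32.5% in the members and 37.5% (36.2 to 38.8) in the other eligible rows, beside the 32% that the width of the bands gives. Of the 806 rows of the second block none held fewer than 4 Cbp reads in the bands, and of the 784 rows of the third block 155 did.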
